A study of Mus musculus with 24 samples.

Results

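The canonical Notch ligands of the mouse are 3 Delta-like genes, Dll1, Dll3 and Dll4, and 2 Jagged genes, Jag1 and Jag2. They were taken by name from the count tables, where they are 5 of 45513 genes, and all 5 passed the filter on low counts in every comparison below. Their levels are described over 4 groups of sorted intestinal epithelial cells.

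The cells came from young adult C57BL/6 mice of both sexes that were homozygous at the Atoh1 locus and carried 1 copy of a Cre-dependent tdTomato reporter. Control mice were Atoh1(WT)CreERT2 R26RtdTom (WT), and mutant mice were Atoh1(9S/T-A)CreERT2 R26RtdTom (9S/T-A), in which 9 serine or threonine residues of ATOH1 that precede a proline are alanine. Every mouse, controls included, had the tamoxifen-dependent Cre placed downstream of the Atoh1 coding sequence and received a single 3 mg intraperitoneal dose of tamoxifen. Live EpCAM+tdTom+ cells were sorted 24 h later from the proximal small intestine (SI) or the colon after the fraction richest in villi had been discarded. Each genotype was represented by SI and by colon, which gave 4 groups of 6 libraries, 3 female and 3 male. The reporter marks cells in which the Atoh1 locus was active at labelling, so the sort holds several secretory cell types and their precursors. The titles number the libraries of every group from 2 to 7. The deposited description counts 6 mice and states that both tissues were collected. A legend in the study gives that same number for each genotype, without naming mice. How the libraries map to mice is thus not settled by these sources, and the p-values measure the spread between these libraries.

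Notch ligands are single-pass membrane proteins that bind Notch receptors on an adjoining cell. Endocytosis of a bound ligand pulls on the receptor, which is then cut and releases a fragment that enters the nucleus and switches on genes of the Hes family. In the intestinal crypt, secretory cells that express Atoh1 present Delta-like ligands, and the Notch signal received by their neighbours holds Atoh1 down in them. Dll1 and Dll4 serve this role together, whereas Dll3 stays mostly inside the cell, does not activate receptors from outside and can hold back Notch in its own cell.

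Libraries held between 36.0 and 65.8 M counts (M stands for the prefix mega), and 0 of 276 pairs of them were identical. Levels are counts per M scaled by TMM factors over the 24 libraries (CPM), given as mean ± SD. Atoh1, the altered gene, had 92.3 ± 15.5 CPM in WT SI, 75.0 ± 11.04 in 9S/T-A SI, 102.9 ± 15.7 in WT colon and 85.9 ± 13.6 in 9S/T-A colon (SD, n = 6 each). Between genotypes Atoh1 differed by -0.30 on the log2 scale in SI (95% interval -0.55 to -0.05, edgeR adjusted p = 0.23, SE 0.118). The colon value was -0.24 (95% interval -0.48 to -0.0046, edgeR adjusted p = 0.558, SE 0.110). Both intervals, which are not adjusted for the number of genes, lie below 0. Whether reads carried the altered codons, and whether such reads aligned to the unaltered GRCm38 sequence as well as WT reads, was not analysed here. The 8 goblet cell markers were present in every library, with a summed level between 35971 and 507939 CPM. Endothelial markers matter here because vessels are rich in Dll4 and Jag1. Of the 6 on the list, 5 had a mean under 1 CPM in each group. Among these, Cdh5 was at 0 in 22 of 24 libraries, whereas Pecam1 was present in every library, at 0.163 to 0.744 CPM. The other marker, Vwf, was also present in every library, at 0.769 to 6.70 CPM. The endothelial sum was at most 2.74 CPM in SI and 3.96 to 7.12 CPM in colon. Between tissues, 1 of the 2 endothelial markers tested was called higher in colon in each genotype. The part of vessel RNA in the ligand levels was not tested. Of the 6 stromal markers, the collagen Col3a1 was at 0 in all 24 libraries and 4 others never passed 0.287 CPM, whereas Vim ranged from 0.851 to 18.1 CPM and carried most of the sum, which was 6.05 to 18.1 CPM in WT SI, 2.66 to 7.47 in 9S/T-A SI and at most 2.55 in colon.

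Dll1 and Dll4 made up most of the ligand messenger RNA per length of transcript in these cells, and the other 3 ligands were far lower. On the scale of CPM per kilobase of exon, which is the scale used to compare ligands with each other, the means in WT SI were 33.1 for Dll1, 31.8 for Dll4, 1.43 for Jag1, 0.755 for Dll3 and 0.539 for Jag2. In WT colon they were 12.6 for Dll4, 11.4 for Dll1, 1.48 for Jag1, 0.399 for Jag2 and 0.142 for Dll3. The libraries of Dll1 and Dll4 overlapped on this scale in all 4 groups, so the order of the pair was not resolved, and in every group both were above every other ligand without overlap. Dll1 held 48.9% ± 4.001 and Dll4 47.1% ± 4.10 of the summed ligand level per kilobase in WT SI (SD, n = 6). The shares in 9S/T-A SI were 45.1% ± 4.61 and 49.5% ± 4.36. In colon the shares of Dll1 and Dll4 were 43.7% ± 3.78 and 48.5% ± 4.21 in WT, and 45.1% ± 4.62 and 45.3% ± 4.46 in 9S/T-A. The sum of the 5 ligands was 67.6 ± 5.87 CPM per kilobase in WT SI, 81.7 ± 8.29 in 9S/T-A SI, 26.1 ± 3.00 in WT colon and 26.6 ± 3.38 in 9S/T-A colon.

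**Figure D1:**
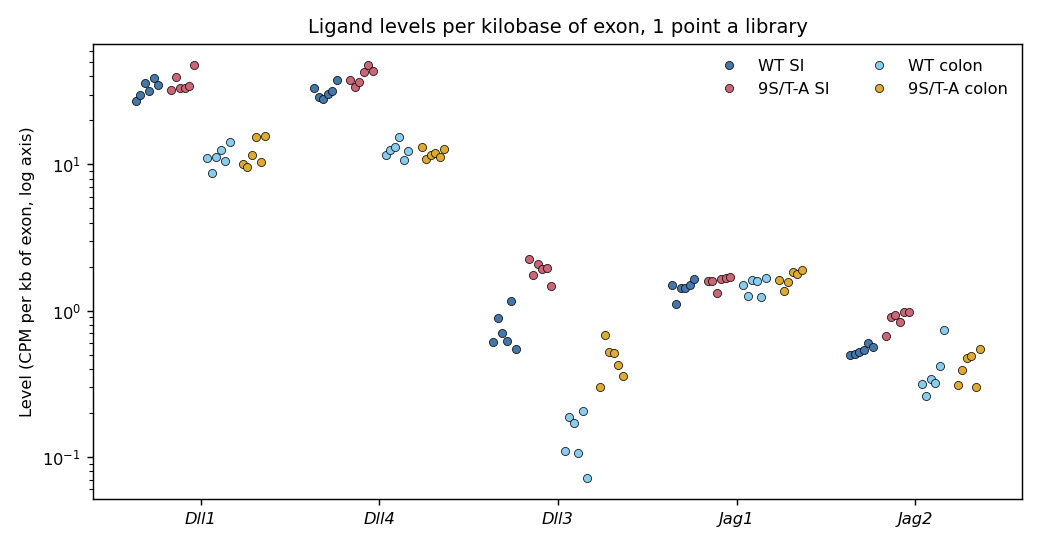
Level of each Notch ligand in CPM per kilobase of exon on a log axis, with 1 point for each of the 24 libraries and a colour for each group. Dll1 and Dll4 lie above the other 3 ligands in every group, with WT SI means of 33.1 and 31.8 against at most 1.43 CPM per kilobase for the others.

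The lower places of this order differed between groups. In WT SI, Jag1 overlapped Dll3 and Dll3 overlapped Jag2. In 9S/T-A SI, Dll3 took the third place with 1.91 ± 0.273 CPM per kilobase, overlapping Jag1 at 1.59 ± 0.134, and Jag2 at 0.881 ± 0.116 was below both without overlap. In WT colon, Dll3 was last and separate from Jag2 in every library, with 0.0715 to 0.208 against 0.263 to 0.739 CPM per kilobase. In 9S/T-A colon, Dll3 at 0.467 ± 0.135 and Jag2 at 0.418 ± 0.0996 CPM per kilobase overlapped. These places are a description and were not tested.

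Between genotypes, Dll3 was the ligand that rose in both tissues, Jag2 rose in SI, and the abundant ligands Dll1 and Dll4 did not pass the test in either. Genes were called at an edgeR adjusted p under 0.05 over all genes tested. In SI, 2 of the 5 ligands were called higher in 9S/T-A and none lower, where 1.03% of 16236 genes were called higher and 0.905% lower. In colon, 1 of 5 was called higher and none lower, where 0.229% of 16997 genes were called higher and 0.0883% lower. The median log2 fold change of the 5 ligands was 0.35 in SI and 0.10 in colon, against 0.00023 and 0.0049 over all genes tested. In these bulk libraries, fewer cells of a type and less RNA per cell cannot be told apart.

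Between tissues, the Delta-like ligands were lower in colon in both genotypes. In WT, 3 of 5 ligands were called lower in colon and none higher, where 30.4% of 16979 genes were called lower and 33.1% higher. In 9S/T-A, 4 of 5 were called lower and none higher, where 28% of 16938 genes were called lower and 32.9% higher. The median of the 5 ligands was -1.36 in WT and -1.64 in 9S/T-A, against 0.026 and 0.042 over all genes. With plain library totals the median of all genes between tissues moved to 0.74 in WT and 0.85 in 9S/T-A, with 12241 genes called higher and 1903 lower in WT and 12546 and 1653 in 9S/T-A, against 5625 and 5169, and 5576 and 4743, with TMM factors. In SI the same scaling called 78 genes higher and 190 lower between genotypes, against 168 and 147. Dll1, Dll3 and Dll4 were called lower in colon under both scalings, with smaller differences under plain totals. Those log2 fold changes were -0.86 for Dll1, -1.74 for Dll3 and -0.65 for Dll4 in WT, and -0.82, -1.27 and -0.97 in 9S/T-A. Jag1 was called higher in colon under plain totals and not with TMM factors. Whether the genotype difference itself differed between tissues was tested over the 24 libraries in 17953 genes, of which 0.29% were called with a colon effect above that of SI and 0.123% with a colon effect below it (52 and 22 genes, or 65 and 8 with plain library totals). No ligand was called in this edgeR interaction test, and DESeq2 called none either. In edgeR 2 of 5 ligands, Dll4 and Jag2, had an unadjusted p under 0.05, against 1740 of 17953 over all genes.

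**Figure D2:**
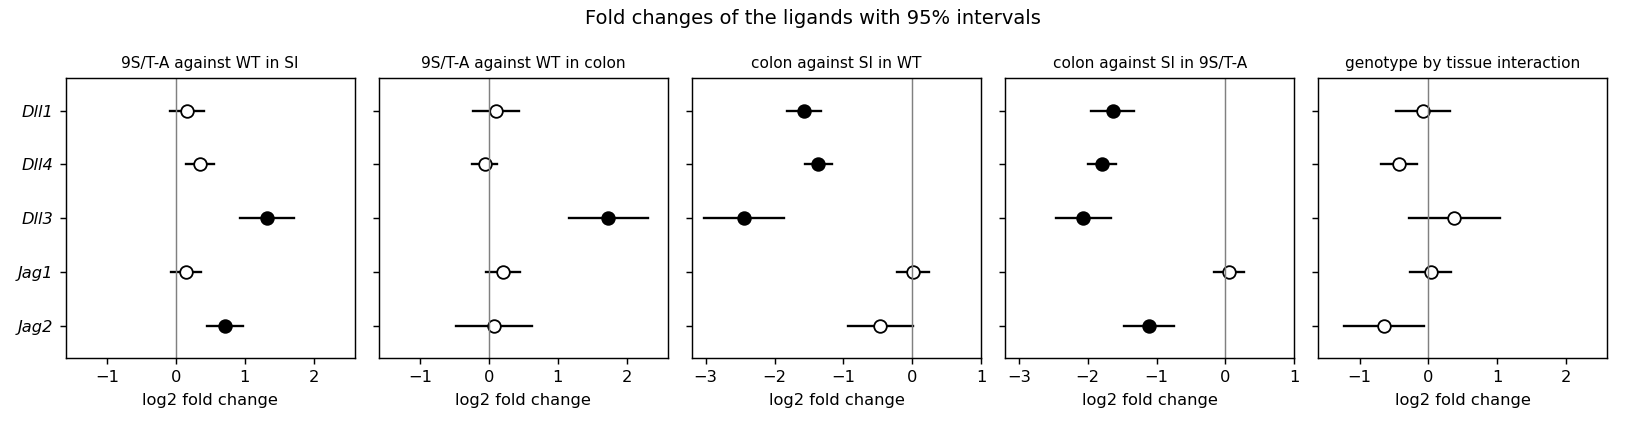
Log2 fold change of each ligand (points) with its 95% interval (lines) in the 5 comparisons, with filled points for an edgeR adjusted p under 0.05. In the interaction panel the value is the genotype difference in colon minus that in SI. Dll3 is filled in 4 panels and Jag1 in none.

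Dll1 (ENSMUSG00000014773, GRCm38 chr17:15367354-15376872, minus strand, protein coding) encodes a Delta-like ligand that activates Notch receptors on adjoining cells. The 250 bases before its RefSeq start nearest the start in the count files (GRCm38.p6 chr17:15376933-15377182, minus strand) are shown because Dll1 was 1 of the 2 abundant ligands, with each CANNTG hexamer, the E-box core bound by proteins of ATOH1's class, in capitals.
Dll1: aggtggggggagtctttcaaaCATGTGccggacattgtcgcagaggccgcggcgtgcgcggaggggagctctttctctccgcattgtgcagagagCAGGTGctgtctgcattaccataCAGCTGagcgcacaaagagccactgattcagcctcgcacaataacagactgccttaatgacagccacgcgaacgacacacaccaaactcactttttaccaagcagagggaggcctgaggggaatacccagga
There are 3 such hexamers, and the CAGCTG among them begins 132 bases before the start. A second RefSeq start, further into the gene, has 1 hexamer in its 250 bases.

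Dll1 had 115 CPM in the lowest, 141 at the median and 165 in the highest WT SI library, and 137, 143 and 203 in 9S/T-A SI. The groups overlapped, with 2 of 6 9S/T-A libraries above every WT library. The log2 fold change was 0.16 (SE 0.115, 95% interval -0.09 to 0.40, edgeR adjusted p = 0.548). In colon the lowest, median and highest libraries had 36.9, 47.2 and 60.4 CPM in WT and 40.7, 46.2 and 66.0 CPM in 9S/T-A. These overlapped as well, and the log2 fold change was 0.10 (SE 0.154, 95% interval -0.23 to 0.43, adjusted p = 0.994). An increase of Dll1 above 1.5-fold lies outside both intervals of the genotype difference. Between tissues, all 6 colon libraries were below all 6 SI libraries in each genotype. Dll1 was 2.96-fold lower in colon in WT (log2 fold change -1.57, SE 0.117, edgeR adjusted p = 1.27e-08) and 3.11-fold lower in 9S/T-A (-1.64, SE 0.146, adjusted p = 1.44e-07). The genotype difference in colon minus that in SI was -0.07 (95% interval -0.47 to 0.32, adjusted p = 0.973).

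**Figure D3:**
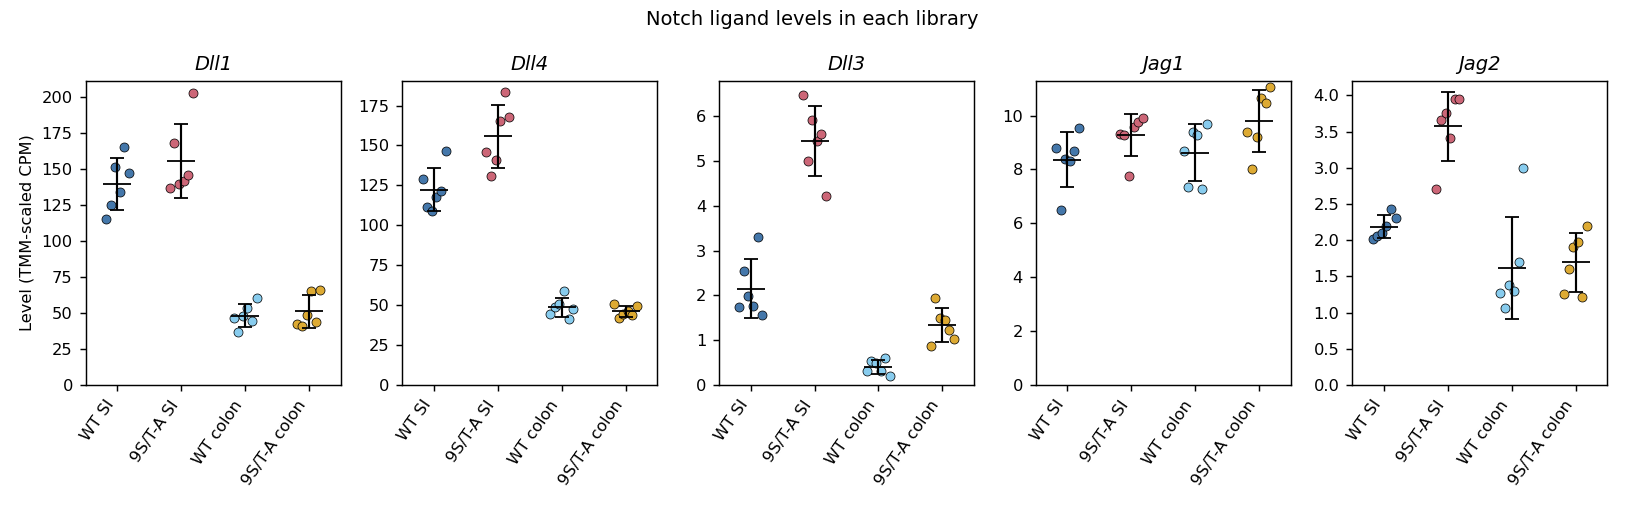
Level of each ligand in TMM-scaled CPM, with 1 point a library (6 in each group), a horizontal bar for the mean and error bars for 1 SD, each panel on its own axis from 0. Every 9S/T-A library lies above every WT library for Dll3 in both tissues, from 0.860 CPM upwards against at most 0.592 CPM in colon, and for Jag2 in SI.

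Dll4 (ENSMUSG00000027314, GRCm38 chr2:119325784-119335962, plus strand, protein coding) encodes the other ligand by which secretory cells activate Notch in their neighbours. The sequence before its start (GRCm38.p6 chr2:119325534-119325783, plus strand) is shown because this stretch also lies within the bounds of a gene of the opposite strand, described below.
Dll4: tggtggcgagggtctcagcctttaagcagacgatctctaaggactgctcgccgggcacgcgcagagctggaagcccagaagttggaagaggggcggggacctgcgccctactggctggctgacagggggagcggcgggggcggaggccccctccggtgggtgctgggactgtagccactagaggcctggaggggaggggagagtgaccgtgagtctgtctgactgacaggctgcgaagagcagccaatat
It has no CANNTG hexamer, so no base is in capitals.

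Dll4 had 109 CPM in the lowest, 119.5 at the median and 146 in the highest WT SI library. In 9S/T-A SI the same values were 131, 156 and 183 CPM. The ranges overlapped, although each 9S/T-A library was above the WT library of the same number (6 of 6) and 3 were above every WT library. The log2 fold change was 0.35 (SE 0.0960, 95% interval 0.14 to 0.55), and its edgeR adjusted p of 0.0867 missed the threshold. The outcome depended on the fit, since the adjusted p was 0.0276 in DESeq2, 0.0369 in 1 fit over the 24 libraries, 0.0352 with the library number as a replicate block, 0.0440 without WT SI replicate 7 and 0.283 with plain library totals. In colon, Dll4 had 41.2, 48.2 and 58.9 CPM in the lowest, median and highest WT library and 41.8, 45.4 and 50.8 CPM in 9S/T-A. No 9S/T-A colon library was outside the WT range, and the log2 fold change was -0.06 (SE 0.0844, 95% interval -0.24 to 0.12, adjusted p = 0.99). Dll4 was 2.57-fold lower in colon than in SI in WT (log2 fold change -1.36, SE 0.0941, adjusted p = 5.24e-09) and 3.45-fold lower in 9S/T-A (-1.79, SE 0.0957, adjusted p = 4.04e-10), without overlap in either genotype. The interaction was -0.43 (SE 0.130, 95% interval -0.69 to -0.16), with an unadjusted p of 0.0030 and an edgeR adjusted p of 0.179.

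The transcript that shares the Dll4 start did pass both tests. Gm14207 (ENSMUSG00000074912, GRCm38 chr2:119321187-119326194, minus strand) is a noncoding gene that runs away from Dll4 and shares 411 bases with its 5′ end on the opposite strand. Reads were counted by strand, so the shared bases are not counted for both genes. It was named here after its values were seen. Gm14207 had 11.1, 14.3 and 16.05 CPM in the lowest, median and highest WT SI library and 17.9, 20.1 and 22.0 CPM in 9S/T-A SI. All 6 9S/T-A libraries were above all WT libraries, and the rise was 1.44-fold (log2 fold change 0.53, SE 0.0936, edgeR adjusted p = 0.00784). The colon libraries had 10.4, 12.8 and 14.2 CPM in WT and 9.97, 11.4 and 12.9 CPM in 9S/T-A, which overlapped (log2 fold change -0.13, SE 0.0945, adjusted p = 0.851). The interaction was -0.67 (SE 0.130, adjusted p = 0.0141). With plain library totals the adjusted p was 0.101 in SI and 0.159 for the interaction, so these calls held for TMM and not for that scaling. Between tissues, Gm14207 did not pass the test in WT (log2 fold change -0.16, adjusted p = 0.191, and 0.56 with adjusted p = 0.000674 under plain totals), where Dll4 fell, and was lower in colon in 9S/T-A (-0.82, adjusted p = 1.39e-06, and -0.01 with adjusted p = 0.919 under plain totals). Across the 24 libraries, Pearson's r between the log2 levels of Gm14207 and Dll4 was 0.788, and 0.340 after the group means were removed, as a description over libraries that share their group differences.

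**Figure D4:**
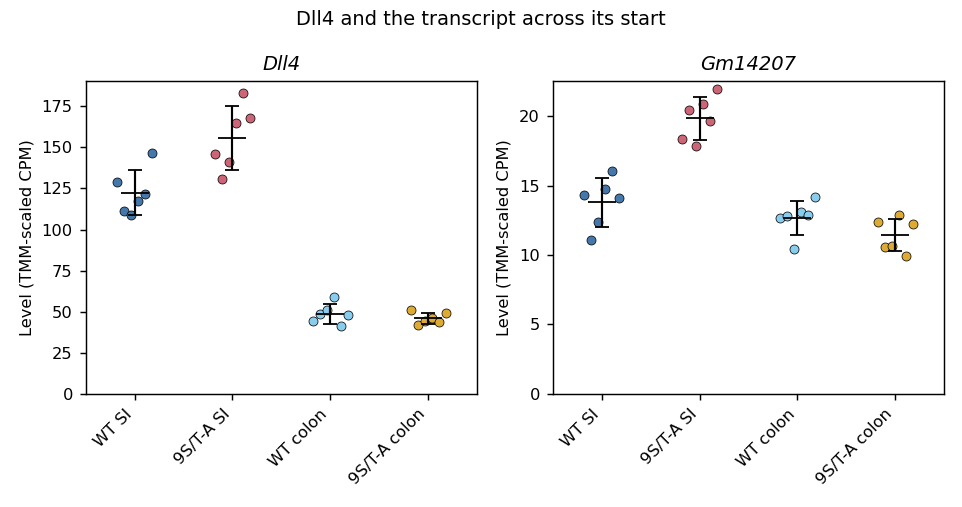
Levels in TMM-scaled CPM of Dll4 (left) and of the opposite-strand transcript Gm14207 (right), with 1 point a library, the mean as a bar and 1 SD as error bars, on axes from 0. In SI the 9S/T-A libraries of Gm14207 start at 17.9 CPM, above the highest WT library at 16.05 CPM, whereas the Dll4 ranges overlap.

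Dll3 (ENSMUSG00000003436, GRCm38 chr7:28293553-28302238, minus strand, protein coding) encodes the divergent Delta-like protein that does not activate receptors on adjoining cells. The 250 bases before its RefSeq start (GRCm38.p6 chr7:28301786-28302035, minus strand) are shown because Dll3 rose in both tissues, with CANNTG hexamers in capitals. This start lies inside the gene as bounded in the count files.
Dll3: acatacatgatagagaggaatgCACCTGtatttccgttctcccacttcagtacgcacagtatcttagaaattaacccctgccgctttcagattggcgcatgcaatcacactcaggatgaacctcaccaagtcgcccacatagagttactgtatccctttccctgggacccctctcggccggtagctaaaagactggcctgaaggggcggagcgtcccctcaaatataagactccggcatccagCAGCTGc
Of the 2 hexamers, CACCTG begins 228 bases and CAGCTG 7 bases before the start.

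Dll3 had 1.57 CPM in the lowest, 1.87 at the median and 3.31 in the highest WT SI library, from 49 to 151 counts. In 9S/T-A SI it had 4.22, 5.53 and 6.48 CPM, from 195 to 264 counts. The groups did not overlap, and the rise was 2.51-fold (log2 fold change 1.33, SE 0.183, 95% interval 0.94 to 1.72, edgeR adjusted p = 0.00132). The colon libraries had 0.204, 0.401 and 0.592 CPM in WT, from 14 to 36 counts, and 0.860, 1.34 and 1.94 CPM in 9S/T-A, from 70 to 119 counts. The colon groups did not overlap either, and the rise was 3.33-fold (log2 fold change 1.74, SE 0.267, 95% interval 1.16 to 2.31, adjusted p = 0.00977). Dll3 stayed called in both tissues when any 1 library was left out, with log2 fold changes between 1.26 and 1.499 (SI) or between 1.61 and 1.87 (colon). The genotype difference in colon minus that in SI was 0.38 (95% interval -0.28 to 1.04, adjusted p = 0.818), so a difference between the tissues was not detected, and one of up to 1.04 on the log2 scale lies inside the interval.

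Dll3 also had the largest tissue difference among the ligands. It was 5.45-fold lower in colon than in SI in WT (log2 fold change -2.45, SE 0.271, edgeR adjusted p = 1.25e-06) and 4.18-fold lower in 9S/T-A (-2.06, SE 0.186, adjusted p = 1.58e-07), with no overlap in either genotype. The order of the 4 groups was 9S/T-A SI, WT SI, 9S/T-A colon and WT colon, and the neighbours WT SI, at 1.57 CPM or more, and 9S/T-A colon, at 1.94 CPM or less, overlapped. As a share of the summed ligand level per kilobase, the SI values of Dll3 were 1.12% ± 0.328 for WT and 2.38% ± 0.517 for 9S/T-A, and those of colon were 0.567% ± 0.260 for WT and 1.80% ± 0.666 for 9S/T-A (SD, n = 6).

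Jag1 (ENSMUSG00000027276, GRCm38 chr2:137081456-137116644, minus strand, protein coding) encodes a Jagged ligand known in many tissues, vessels among them. With TMM factors its level was the most even of the 5 ligands over the groups. The lowest, median and highest SI libraries had 6.48, 8.53 and 9.52 CPM for WT and 7.75, 9.44 and 9.90 CPM for 9S/T-A. Those of colon had 7.26, 8.99 and 9.69 CPM for WT and 7.998, 9.93 and 11.1 CPM for 9S/T-A. All 4 groups overlapped. The genotype difference was 0.15 on the log2 scale in SI (SE 0.101, 95% interval -0.07 to 0.36, edgeR adjusted p = 0.516) and 0.20 in colon (SE 0.112, 95% interval -0.04 to 0.45, adjusted p = 0.671). Between tissues it was 0.01 in WT (95% interval -0.22 to 0.24, adjusted p = 0.936) and 0.05 in 9S/T-A (95% interval -0.16 to 0.27, adjusted p = 0.678). With plain library totals Jag1 was called higher in colon in both genotypes, at 0.72 in WT (edgeR adjusted p = 0.000134) and 0.86 in 9S/T-A (adjusted p = 3.02e-05), next to a median over all genes of 0.74 and 0.85 under the same scaling. Its share of the summed level per kilobase was 5.67% ± 0.332 in WT colon against 2.12% ± 0.190 in WT SI, while Dll1 and Dll4 were lower in colon.

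Jag2 (ENSMUSG00000002799, GRCm38 chr12:112908590-112929495, minus strand, protein coding) encodes the second Jagged ligand. The bases before its start (GRCm38.p6 chr12:112929496-112929745, minus strand) are shown because Jag2 was the other ligand called between genotypes.
Jag2: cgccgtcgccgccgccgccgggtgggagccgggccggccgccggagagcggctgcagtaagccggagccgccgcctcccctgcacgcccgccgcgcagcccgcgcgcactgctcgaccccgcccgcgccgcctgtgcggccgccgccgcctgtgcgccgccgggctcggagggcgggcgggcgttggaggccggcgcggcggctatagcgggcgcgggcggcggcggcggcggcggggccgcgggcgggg
It holds no CANNTG hexamer and is 87.2% G and C, against 52% for the Dll3 stretch.

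Jag2 had 2.02, 2.15 and 2.43 CPM in the lowest, median and highest WT SI library, from 72 to 111 counts, and 2.70, 3.71 and 3.95 CPM in 9S/T-A SI, from 103 to 201 counts. The SI groups did not overlap, and the rise was 1.63-fold (log2 fold change 0.71, SE 0.122, 95% interval 0.45 to 0.97, edgeR adjusted p = 0.00637). With plain library totals it was 0.59 with an adjusted p of 0.0514, next to a median over all genes of -0.11 under that scaling. In colon the values were 1.06, 1.34 and 3.00 CPM in WT and 1.22, 1.75 and 2.20 CPM in 9S/T-A. They overlapped, and the log2 fold change was 0.07 (SE 0.259, 95% interval -0.48 to 0.63, adjusted p = 1.0). The highest WT colon library, replicate 7, had 206 counts where the others had 68 to 103, and without it the genotype difference was 0.37. The interaction was -0.65 (SE 0.279, 95% interval -1.22 to -0.07), with an unadjusted p of 0.0293 and an adjusted p of 0.422.

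Jag2 was 2.15-fold lower in colon than in SI in 9S/T-A without overlap (log2 fold change -1.11, SE 0.170, edgeR adjusted p = 4.43e-05), a value of -0.28 with an adjusted p of 0.189 under plain library totals. In WT, 5 of 6 colon libraries were below all SI libraries and replicate 7 was above them. The WT log2 fold change was -0.46 (SE 0.220, 95% interval -0.93 to 0.01, adjusted p = 0.0792). It was -0.74 with an adjusted p of 0.00034 without WT colon replicate 7, -0.54 with an adjusted p of 0.0169 with the library number as a replicate block, and 0.27 with an adjusted p of 0.323 with plain totals. The call thus changed when 1 library was left out, and the direction changed with the scaling.

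Cell type markers moved between the groups as well, and those that passed the test between genotypes are named here after their values were seen. In SI, the summed level of the 8 goblet markers was 314996 to 443045 CPM in WT and 320252 to 507939 CPM in 9S/T-A. The 8 Paneth markers summed to 53213 to 86621 CPM in the WT libraries of SI, against 43041 to 67040 CPM in the 9S/T-A libraries, and 3 of 8 (Mmp7, Itln1 and Ang4) were called lower, where 0.905% of all genes were. Of the other 5, Defa22 had a positive log2 fold change (0.90, SE 0.276), and Lyz1, Defa17, Defa24 and Defa26 had values from -0.59 to -0.15, with paralogs that make the defensin counts uncertain. Of the other lists, Gcg of 8 enteroendocrine, Pou2f3 of 6 tuft and Vim of 6 stromal markers were called lower in 9S/T-A SI. The markers tested there were 8 enteroendocrine, 5 tuft and, for the stromal list, only 1, Vim itself. In colon, Spink4 of the 8 goblet markers was called higher, where 0.229% of all genes were. The goblet sum there was 35971 to 56781 CPM in WT and 36774 to 82291 CPM in 9S/T-A. Between tissues the lists differed far more, since the Paneth sum was 174.9 to 1474 CPM in the colon groups. The part of these markers in the ligand differences was not tested.

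The other genes of the Notch pathway were not called between genotypes, where few genes of any kind were (315 of 16236 in SI and 54 of 16997 in colon). A list of 44 genes held non-canonical ligands, the ubiquitin ligases and adaptors of ligand endocytosis, receptors, the enzymes that glycosylate and cut them, the nuclear complex, target genes and inhibitors. In SI, 0 of 39 tested genes were called by edgeR or DESeq2, 3 had an unadjusted p under 0.05 (2556 of 16236 over all genes), and the median log2 fold change was 0.0012 against 0.00023 over all genes tested. The smallest p belonged to Poglut1, an enzyme that adds glucose to Notch, at -0.26 on the log2 scale (edgeR adjusted p = 0.252, SE 0.109). In colon, 0 of 37 were called by edgeR or DESeq2, 4 had an unadjusted p under 0.05 (1497 of 16997 over all genes), and the median was -0.016 against 0.0049 over all genes. The smallest p there belonged to Lfng, the Fringe enzyme that alters how Notch responds to Delta-like and Jagged ligands, at -0.25 on the log2 scale (edgeR adjusted p = 0.19, SE 0.0684). Lfng was the 1 gene of the list called when the library number was a replicate block. In the interaction, 0 of 40 were called by either tool and 3 had an unadjusted p under 0.05 (1740 of 17953 over all genes). Maml1, a coactivator of the nuclear complex, had the smallest p (-0.25, SE 0.106, edgeR adjusted p = 0.405).

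**Figure D5:**
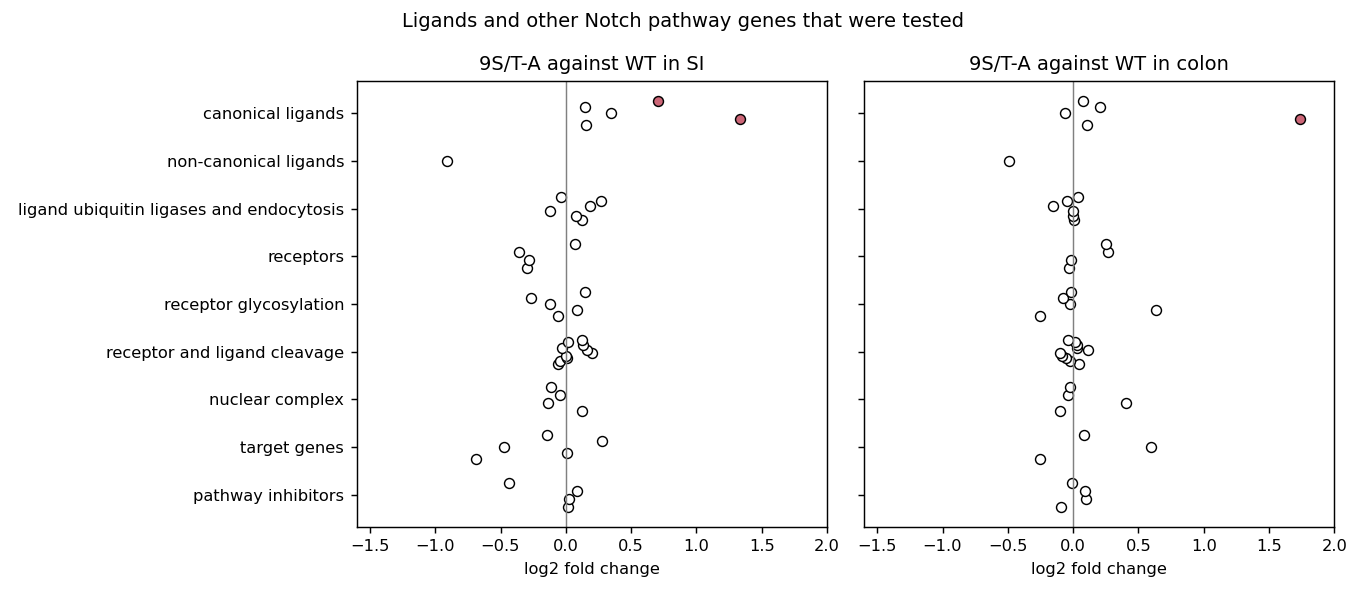
Log2 fold change between genotypes in SI (left) and colon (right) of the 5 canonical ligands and of the other Notch pathway genes that were tested, 1 point a gene, in rows by role, with filled points for an edgeR adjusted p under 0.05. The filled points are Dll3 and Jag2 in SI and Dll3 in colon.

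The tissue comparisons called pathway genes in both directions with TMM factors. Plain library totals moved the median of all genes to 0.74 in WT and 0.85 in 9S/T-A, and pathway genes were not counted under that scaling. The direction of small differences, such as that of Mib1 in WT (log2 fold change -0.29), may thus depend on the scaling. In WT, 10 of 40 tested genes were called higher and 18 lower in colon, with a median log2 fold change of -0.23 against 0.026 over all genes, of which 33.1% were called higher and 30.4% lower. In 9S/T-A, 9 of 39 were called higher and 18 lower, with a median of -0.18 against 0.042 over all genes, of which 32.9% were called higher and 28% lower. Beside these shares, the 6 genes that act on the ligands from inside the signalling cell gave 3 called lower and none higher in WT, and 4 lower and none higher in 9S/T-A. The 4 receptors gave 1 called in each direction in each genotype. The smallest p belonged to Aph1b, a subunit of the protease that cuts Notch, which was higher in colon in WT (log2 fold change 2.05, SE 0.117, edgeR adjusted p = 5.58e-10) and in 9S/T-A (1.95, SE 0.144, adjusted p = 1.62e-08).

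Among 17953 genes ranked by Pearson's r of log2 CPM with each ligand over the 24 libraries, the closest to Dll1 were Map4k4 (r 0.983), Runx1t1 (0.980) and Pld2 (0.978). The closest to Dll4 were Serpina1e (0.984), Epha2 (0.983) and Itpkc (0.983), and the counts of Serpina1e are uncertain because close paralogs share its sequence. Both sets of genes were lower in colon on average, as Map4k4 with 63.4 CPM in WT SI and 15.2 in WT colon and Epha2 with 63.7 and 5.98. After the group means were removed, r with Dll1 was 0.803 for Map4k4, 0.701 for Runx1t1 and 0.722 for Pld2, and r with Dll4 was 0.450 for Serpina1e, 0.589 for Epha2 and 0.514 for Itpkc. For Dll3 the closest were Spink4 (0.928), a goblet cell peptide, Ces1c (0.927) and R3hdml (0.927). After the group means were removed, r with Dll3 was 0.594 for Spink4, 0.192 for Ces1c and 0.481 for R3hdml. For Jag2 the closest were Lonrf3 (0.914), Ms4a6c (0.914) and Anks6 (0.907). Jag1, which varied little between groups, had lower values, with Pacs2 (0.732) first, followed by Gm26799 (0.717) and Gm43469 (0.706), both of which had a mean under 1 CPM in each group.

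Among the ligands themselves, r over the 24 libraries was 0.950 between Dll1 and Dll4, and 0.194 after the group means were removed, so within groups the pair varied together little. Dll1 and Jag2 had r of 0.816, and 0.683 within groups. WT colon replicate 7, which stood apart for Jag2 (3.00 CPM), was also the highest WT colon library for Dll1 (60.4 CPM). How far this r rests on that library was not tested. Jag1 had r of 0.610 with Dll1 and 0.573 with Dll4 within groups, against 0.015 and -0.038 over the 24 libraries. Dll3 had r of -0.344 with Dll1, -0.410 with Dll4 and -0.575 with Jag1 within groups. These values describe libraries that share depth and scaling, and no test was attached to them.

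The genes around the ligands on the chromosome were counted as well, and most were not called between genotypes, as for genes at large. In SI, however, the shares with an unadjusted p under 0.05 around Dll4 and Jag2 were above that of all genes. Over all genes tested, edgeR called 315 of 16236 in SI and 54 of 16997 in colon, with 2556 and 1497 at an unadjusted p under 0.05. In SI DESeq2 called 780 of 18721 and the replicate block 477 of 16236. In colon DESeq2 called 247 of 20581 and the block 385 of 16997. Of the genes starting within 1 Mb of Dll3, edgeR called 0 of 62 in SI and 0 of 63 in colon, with 5 at an unadjusted p under 0.05 in each. DESeq2 called 1 of them in each tissue, and the replicate block called 0 in SI and 2 in colon. Around Jag2 in SI, edgeR called 1 of 22, with 7 at an unadjusted p under 0.05, DESeq2 called 3 and the replicate block 1. The called gene was Inf2, at 12.1 ± 4.90 CPM in WT and 5.99 ± 1.09 in 9S/T-A (log2 fold change -1.01, SE 0.209, edgeR adjusted p = 0.0226), in the opposite direction to Jag2. When any 1 of the 12 libraries was dropped the value lay between -1.11 and -0.76, and the call was lost without 9S/T-A SI replicate 3, 4 or 5 (adjusted p up to 0.0625). Around Dll4 in SI, edgeR called 1 of 52, Gm14207, with 13 at an unadjusted p under 0.05, while DESeq2 called 5 and the replicate block 4. No set test was run on these windows.

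The sequences shown above were read against all promoters of the same source. CANNTG, which reads the same on both strands in its fixed bases, was present in the 250 bases before 66.22% of 32851 RefSeq starts, so its presence before Dll1, Dll3 and Jag1 is common. CAGCTG, which is 1 form of CANNTG, was found before 13% of the starts and before Dll3, Jag1 and 1 of the 2 starts of Dll1. TGGGAA, the core bound by the nuclear partner of Notch, was searched on both strands and was found before 21.59% of the starts and before none of the 6 starts of the ligands. The 2 ligands that rose in SI differed in this respect, with 2 CANNTG hexamers before Dll3 and none before Jag2. A match describes letters and says nothing of binding.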

How the data were processed

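Messenger RNA of sorted cells was measured by stranded 50 bp single-end sequencing. The authors aligned reads to GRCm38 with TopHat2 2.1.1 and deposited raw counts made by featureCounts (Subread 1.5.2), per the file headers summed over the exons of each Ensembl gene, by strand, from primary alignments. GENCODE M21 named 44585 of 45513 genes (97.96%).

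The test of counts was the two-sided quasi-likelihood test of edgeR 4.0.16 (R 4.3.3) after filterByExpr and TMM scaling, each comparison in its own groups and the interaction in all 24 libraries, with Benjamini-Hochberg adjustment over all genes tested. The steps were tested on simulated data. Alternatives were DESeq2 1.42.0, its size factors, plain library totals, other filters, sex as a covariate, the library number as a block, 1 fit over all libraries, a threshold of 0.1, and each library left out. Those for Gm14207 and Inf2 were chosen after seeing the data. The members, lists and tests were chosen with earlier results of these data known. Named genes were the ligands, Atoh1, pathway genes called between genotypes or otherwise of smallest p, the 3 genes nearest each ligand in pattern, and called genes within 1 Mb of a called ligand. Gm14207 and the called markers fell outside this rule. Sequences are from RefSeq (GRCm38.p6).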

Additional observations from a re-analysis of the deposited data

Results flagged for a closer look

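In 2 of the 20 combinations of ligand and group, 1 library stood apart from its group by the spacing of its value, where about 1 in 20 is flagged by chance. Jag1 had 7.75 CPM in its lowest 9S/T-A SI library, replicate 4, against 9.27 CPM or more in the others. Jag2 had 3.00 CPM in its highest WT colon library, replicate 7, against 1.69 CPM or less in the others, from 206 counts against at most 103.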

How the results depend on the processing

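Dll3 kept its call in both genotype and both tissue comparisons under every alternative run, and Dll1 and Dll4 kept theirs in both tissue comparisons. Of the ligand fold changes under all alternatives, 690 kept direction and side of the threshold, 16 passed it newly, 5 no longer passed it and 19 changed sign. The number of ligands called in SI was 1 instead of 2 with plain library totals and with the replicate block when number 3, 4 or 7 was left out, where Jag2 had an adjusted p from 0.0505 to 0.0568. It was 3 with DESeq2 and with the replicate block over all numbers, where Dll4 was called too. Dll4 also passed in 1 fit over the 24 libraries and when WT SI replicate 7 was left out. The number called in the interaction was 1 instead of 0 (Dll4, -0.50, edgeR adjusted p = 0.0440) with the replicate block when number 2 was left out. In each of these the cause was not tested. Changes of sign concerned values near 0 or plain totals. With plain totals they were Jag2 between tissues in WT (0.27), Gm14207 between tissues in WT (0.56) and the interaction of Dll1 (0.036). Jag1 between tissues in WT was -0.00095 in DESeq2, -0.0079 with its size factors, and -0.0082 and -0.014 with the replicate block when number 3 or 5 was left out. With the block and 1 number left out, Dll4 between genotypes in colon reached 0.0031 and the interaction of Jag1 -0.030. Leaving out 1 library each gave -0.10 to 0.0035 for Dll4 and -0.029 to 0.37 for Jag2 between genotypes in colon, -0.027 to 0.080 for Jag1 between tissues in WT, and -0.16 to 0.033 for Dll1 and -0.0067 to 0.11 for Jag1 in the interaction.

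Same-numbered libraries shared deviations from their group means in part, with correlations from -0.0094 to 0.497 between genotypes in SI (3 of 6 pairs over 0.1), 0.017 to 0.743 in colon (5 of 6), 0.083 to 0.456 between tissues in WT (5 of 6) and 0.093 to 0.545 in 9S/T-A (5 of 6), and the library correlated best with its own number in 2, 4, 5 and 6 of 6. Neither the numbers nor these values establish a pairing. Libraries of the same number also had the same sex in every group, so the replicate block takes up differences between the sexes. With the replicate block, all genes called numbered 477 instead of 315 in SI, 385 instead of 54 in colon and 342 instead of 74 in the interaction, and among ligands it changed the call of Dll4 in SI (adjusted p = 0.0352) and of Jag2 between tissues in WT. DESeq2 called 780, 247 and 258 genes, the threshold of 0.1 gave 561, 109 and 136, 1 fit over 24 libraries gave 520 in SI and 103 in colon, and in colon no gene filter gave 90 and sex as a covariate 89. With the block and 1 number left out the counts were 188 to 2476 in SI, 127 to 311 in colon and 82 to 790 in the interaction. Leaving out 1 library gave 188 to 550 in SI, 30 to 72 in colon and 50 to 112 in the interaction. Dll3 in WT colon rested on 14 to 36 counts a library, the lowest depth behind any ligand value.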
